A study of Mus musculus with 5 samples.

Results

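The mRNAs of the cytosolic ribosomal proteins were followed across 5 Surface-seq libraries of EL4 cells, a mouse lymphoma line with T lymphocyte features that grows in suspension. Members were chosen by name: protein-coding genes called Rpl or Rps plus a digit, together with Rpsa, Rplp0, Rplp1 and Rplp2, leaving out S6 kinases, -ps symbols and named paralogs. This gave 79 genes of the 55385 counted, 32 of the small and 47 of the large ribosomal subunit. Surface-seq sequences RNA held on membrane-coated nanoparticles (MCNPs), in which purified cell membrane is wrapped, outside facing out, around polymer cores. In variation A (libraries A1, A2 and A3) RNA was taken from whole MCNPs by phenol-chloroform, end-repaired and then made into a library, so either side of the membrane could contribute. In variation B (B1 and B2) the 3′ adaptor was joined to RNA on intact MCNPs, which favours RNA facing outwards. All 5 libraries came from untreated EL4 cells, and no library of whole-cell RNA was analysed here. The 2 variations differ in adaptor step, in end repair and in RNA isolation, which used silane beads in B. For B the methods also describe more RNA input, more PCR cycles and a size selection of the library. The side of the membrane and the protocol therefore cannot be told apart. The labels do not say that the libraries came from separate cultures, and p-values therefore measure only the spread between libraries. In such bulk libraries, fewer cells carrying an RNA and less of it per cell cannot be told apart either.

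Ribosomal proteins are small, mostly basic proteins that bind ribosomal RNA and complete the small subunit, which reads the mRNA, and the large subunit, which joins amino acids. Their mRNAs are among the most abundant of growing cells. They start with a pyrimidine-rich stretch, the 5′ terminal oligopyrimidine (TOP) tract, through which mTOR signalling and LARP1 control their translation. They are read by free ribosomes and, lacking signal peptides, are not directed to the endoplasmic reticulum. The genes have also left many processed pseudogenes, and several carry small nucleolar RNAs (snoRNAs) in their introns.

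Depth differed between the groups. The A libraries held 1187117 to 4502174 counts on genes and the B libraries 21862003 and 22980172. Ribosomal RNA genes took 50.0% to 54.0% of counts in A and 22.96% and 24.2% in B, and protein-coding genes 22.0% to 39.4% and 63.6% to 64.6%. TMM scaling factors, which align the libraries on the bulk of their genes, ran from 0.570 to 0.879 in A and were 1.88 and 1.85 in B. A1 stood apart from A2 and A3, with the 39.4% protein-coding share against 22.6% and 22.0%, and where leaving it out changed a call or turned a direction among the values below, the value without it is given. T lymphocyte markers were present: 9 of the 10 passed the filter on low counts, and their summed counts were 552 to 2235 in A and 46704 and 47517 in B. The 10th, Trbc1, had at most 1 count. Markers of other cells were near absent. B lymphocyte markers summed to 0 to 11 counts, erythroid markers to 0 to 6 and epithelial markers to 0 to 2, while myeloid markers summed to 0, 12 and 2 in A and 99 and 133 in B, where Lyz2 had 73 and 133 counts against 0 in every A library. The part of these marker and depth differences in the results was not tested.

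The sequences bear on what the counts can show. Ribosomal protein genes resemble their pseudogenes so closely that a read may fit several places, and reads placed in several genes are not counted under the settings recorded with the files. The first coding bases of 7 members are shown 5′ to 3′ from the GENCODE M21 reference transcripts (GRCm38), with the start codon in capitals. The first is from the best counted gene, and the others are from members with near copies.

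Rpl8: ATGggccgtgtgatccgagggcagaggaaa

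Rps27: ATGcctctcgcaaaggatctccttcatccc

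Rps27rt: ATGcctctcgcaaaggatctccttcatccc

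Rpl36a: ATGgtgaacgtgcctaaaacccgccggaca

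Rpl36al: ATGgtcaacgtaccaaaaacccgaaggact

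Rpl24: ATGaaggtcgagctgtgcagtttcagcggg

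Rpl23a: ATGgcgccgaaagcgaagaaggaagctcct

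Rpl8 (chr15:76904078-76906314, plus strand) shares these 30 bases with 0 other genes. Rps27 (chr3:90212522-90213651, minus) and its retrocopy Rps27rt (chr9:114982366-114982739, minus) have the same 30 bases, with 0 differences. Rpl36a (chrX:134585654-134588062, plus) and Rpl36al (chr12:69182731-69184083, minus) differ at 6 of the 30. Those of Rpl24 (chr16:55966275-55971435, plus) recur in 3 other genes and those of Rpl23a (chr11:78180932-78183584, minus) in 8. Over whole reference transcripts, 50-base stretches found in another gene made up a median of 59.9% of a member, with 7.86% in Rpl8 and a maximum of 98.6% in Rps27, and 78 of the 79 members shared at least 1 stretch with a pseudogene.

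Start sites were read from the RefSeq promoter table (GRCm38.p6), which held 59 of the 79 members. A run of at least 8 bases that are all C or T, read on the gene's strand within 20 bases of the start, was found at 1 or more listed starts in 28 of them (47.5%) and in 18.4% of the 27025 genes of the table. Windows of 30 bases around the start are shown for 2 members with higher levels in both B libraries and for 3 that fell in B, with the longest such run in capitals. These were chosen after their values were seen.

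Rpl7a: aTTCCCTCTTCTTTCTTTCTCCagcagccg

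Rps18: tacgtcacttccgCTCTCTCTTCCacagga

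Rplp2: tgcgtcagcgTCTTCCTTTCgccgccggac

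Rpl28: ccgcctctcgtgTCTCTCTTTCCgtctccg

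Rpl35a: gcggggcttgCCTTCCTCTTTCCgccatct

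They lie at chr2:26910792-26910821 (Rpl7a, plus strand), chr17:33955651-33955680 (Rps18, minus), chr7:141447636-141447665 (Rplp2, plus), chr7:4792950-4792979 (Rpl28, plus) and chr16:33056467-33056496 (Rpl35a, plus). The table lists 3 starts for Rpl35a, with longest runs of 4, 13 and 5 bases, and the one with 13 is shown. The run is 21 bases long in Rpl7a and 10 in Rplp2. Among members that fell in B (below), 5 of the 16 in the table had such a run, and among the tested members without a call 22 of 39. These counts are a description, since a match to letters is no measured start of transcription.

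Nearly all members were detected. At least 10 counts were reached by 73, 73 and 60 members in A1, A2 and A3, against 76 and 74 for B1 and B2, and 70 of the 79 were above a CPM of 2 in all 5 libraries (CPM scales counts to the library total). Divided by exon length, the members tested had medians of 22.1, 13.5 and 11.2 CPM per kilobase in the A libraries (A1, A2, A3) and of 30.2 and 35.5 in B1 and B2. The other protein-coding genes tested had medians of 2.68, 1.67 and 1.59 and of 5.81 and 5.70. The median member thus stood at the 91.3th to 95.5th percentile of tested protein-coding genes in each library. Exon length here sums all annotated exons of a gene, so that values per kilobase understate genes with many minor transcripts.

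Rpl8, a core protein of the large subunit, was the most counted member in every library, with 7.71%, 13.9% and 15.8% of the A counts of ribosomal protein genes and 10.9% and 9.61% of those in B. Per kilobase it averaged 422 CPM over the 5 libraries. Rps29 followed at 156, Rps15 at 124 and Rplp1 at 117, and the median of the 79 was 19.8. The 10 highest members per kilobase in A and in B had 6 in common, among them Rpl8, Rplp1, Rps15 and Rps29. Levels per kilobase ranged from 0 (Rps27rt) to 422 (Rpl8), although most ribosomal proteins are present in a single copy per ribosome.

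Whether ribosomal protein mRNAs took more of variation B depended on what they were compared with. The 79 genes together held 11928, 15918 and 3678 counts in the A libraries, in order of number, against 150057 and 175721 for B1 and B2. As a share of all gene counts this was 0.518%, 0.354% and 0.310% in A and 0.686% and 0.765% in B, with 95% Wilson intervals, which cover counting error only, no wider than 0.300% to 0.320% in A3. Both B libraries lay above all 3 A libraries, with means of 0.394% ± 0.110 (SD, n = 3) and 0.726% ± 0.055 (SD, n = 2) and an exact permutation p of 0.1, 2-sided, the smallest that 3 against 2 libraries allow.

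Set against protein-coding counts alone, the order turned over. The shares were then 1.32%, 1.57% and 1.41% in A and 1.08% and 1.19% in B, so that both B libraries lay below all 3 A libraries, again with exact permutation p = 0.1. With ribosomal RNA and mitochondrial genes left out of the total the groups overlapped, at 1.07%, 0.770% and 0.674% in A and 0.915% and 1.04% in B (exact permutation p = 0.5). The overlap came from A1, and without it both B libraries lay above A, with a difference of means of 0.25 percentage points against 0.14. The ribosomal RNA share given above was lower in B, and its part in these differences was not tested apart from that of the mitochondrial genes.

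**Figure D1:**
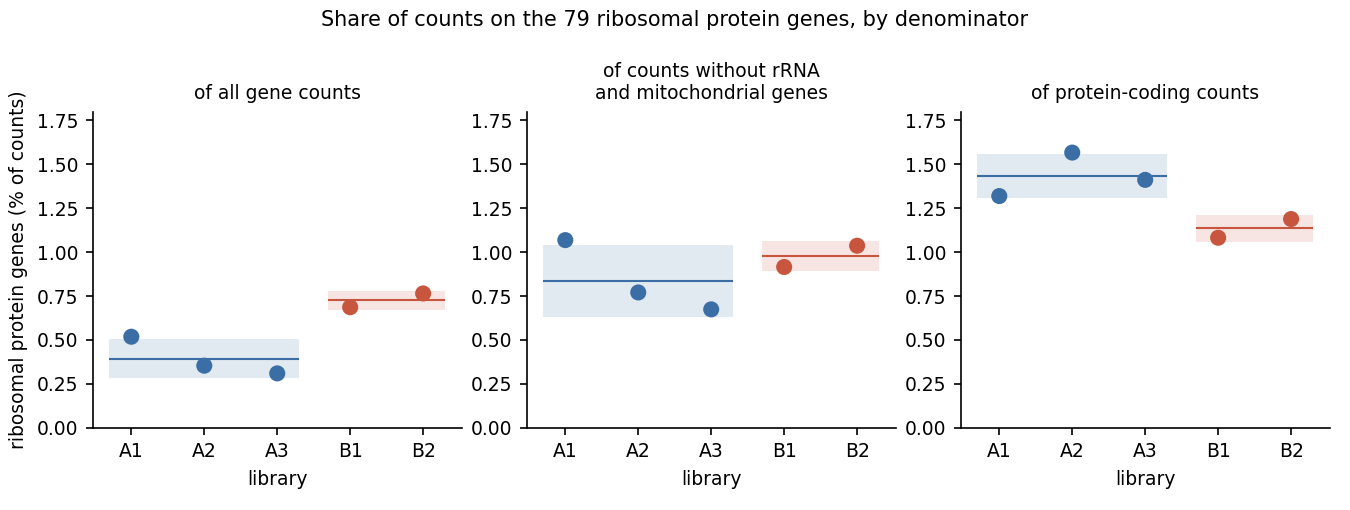
Share of counts on the 79 ribosomal protein genes in percent, by library, for 3 denominators. Points are libraries, lines are group means and bands are 1 SD (n = 3 for A, n = 2 for B). The B libraries sit above A for all counts (0.686% and 0.765%), overlap A through A1 once ribosomal RNA and mitochondrial genes are left out, and sit below A for protein-coding counts (1.08% and 1.19%).

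The balance between the subunits varied little. Large-subunit genes held 55.6%, 55.4% and 54.9% of ribosomal protein counts in A, against 54.7% and 52.9% for B1 and B2. The groups did not overlap, but the difference of means was -1.49 percentage points (exact permutation p = 0.1, adjusted p = 0.1 over the 3 shares tested). It was -0.30 when the most counted member of each library, Rpl8 throughout, was left out (exact permutation p = 0.9; 1.23 if A1 was left out too), and -2.98 in counts per kilobase. It rested on B2 in size, at -0.58 without B2 and -2.39 without B1.

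Genes were then compared between the variations with edgeR's quasi-likelihood test after TMM scaling, and called at a Benjamini-Hochberg adjusted p under 0.05 and a fold above 2. Of the 79 members 74 passed the filter on low counts. In B 20 fell and 0 rose, against 12.4% lower and 11.0% higher of all 10287 genes tested, while with library totals alone in place of TMM scaling 1 fell and 25 rose, against 2.93% lower and 55.1% higher of all genes. At an unadjusted p under 0.05, 24 members were lower and 7 higher, against 20.3% and 19.7% of all genes. DESeq2 called 21 lower and 3 higher (Rpl17, Rpl31 and Rps12) of the 77 members to which it gave an adjusted p, against 12% and 7.95% of all 14279 such genes. The median log2 fold change, B minus A, was -0.51 over the members and 0.05 over all genes tested, and without A1 it was -0.28 and 0.16. Library totals moved the fitted values upwards, to a median of 1.50 over all genes and 0.95 over the members, so the distance between members and all genes was -0.56 with TMM and -0.55 with totals. Without A1 the counts became 22 lower and 13 higher of 75 members, against 15% and 20.8% of all genes. In scaled CPM (CPM on the TMM-scaled library size), both B libraries lay below all 3 A libraries for 29 of the 74 members and above them for 10, against 26.7% and 31.2% of all genes tested.

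**Figure D2:**
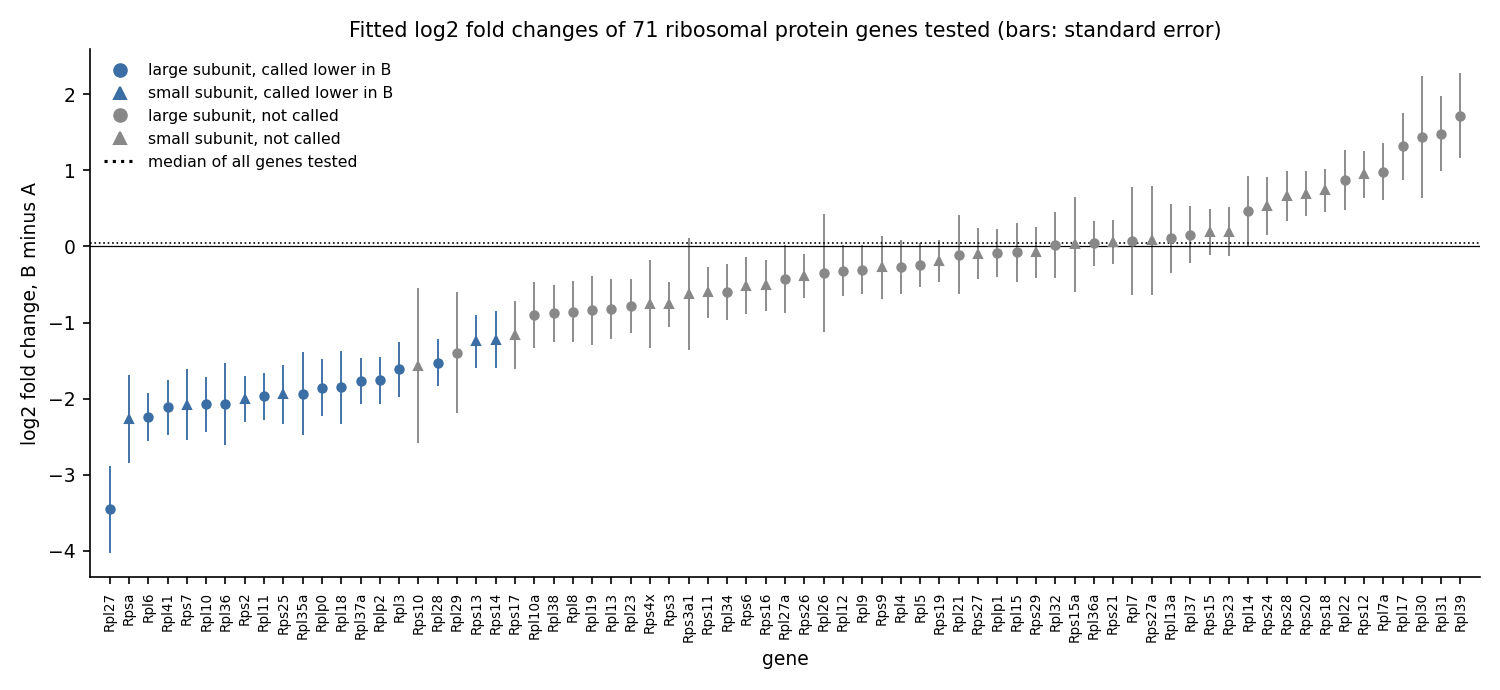
Fitted log2 fold change, B minus A, after TMM scaling for 71 of the 74 members tested, in rising order, with standard errors as bars. Circles are large-subunit and triangles small-subunit genes, and blue marks 19 of the 20 that fell, which span -3.46 (Rpl27) to -1.22 (Rps14). With library totals in place of TMM scaling 1 gene fell and 25 rose.

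With TMM scaling, on which the directions below rest, the genes that fell included 6 of the 31 tested members of the small subunit and 14 of the 43 of the large subunit, against 12.4% of all genes. Whether these shares differ was not tested. All 20 lay lower in both B libraries than in any A library, and 19 had at least 10 counts in every library. The 20 were chosen for a fall in these same libraries, so this order and the signs with a library left out are no separate evidence. With library totals 18 of the 20 still had a log2 fold change below 0, and Rps13 and Rps14 were above it. All 20 were called lower without A1 as well (11 without A2 and 14 without A3), 17 with the replicate number as a block and 6 against a stricter test for a fold beyond 2. The shares of all genes called lower without A2, without A3, with the block and in the stricter test are not given here. The calls rest on having both B libraries: without B1 0 of the 20 were called, and without B2 2 (Rpl27 and Rpl6), against 2.3% and 1.32% of all genes called lower in those fits. Their fitted values stayed below 0 in all 20, with a median of -1.94 in the fit of all libraries, -1.61 without A2, -1.92 without A3, -1.77 without B1 and -1.91 without B2.

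Among the small-subunit genes that fell was Rps2, whose protein lines the entry of the mRNA channel. It stood at 272, 233 and 219 scaled CPM in A (always in the order A1, A2, A3) and at 62.3 and 58.2 in B. Its A values were close together and far above both B values, with a log2 fold change of -2.0 ± 0.30 (SE) and an edgeR adjusted p of 0.0047. Rpsa, which is also known as the laminin receptor for a proposed second role at the cell surface, had 82.3, 222 and 56.3 scaled CPM in A and 19.9 and 30.7 in B. A2 was well above the other A libraries, both B libraries were lower than all of them, and the fall was -2.27 ± 0.58 (edgeR adjusted p = 0.0267). Without A2 it was -1.41 and not called (edgeR adjusted p = 0.0657). Rps7 had 39.2, 83.2 and 35.5 in A and 16.2 and 9.28 in B (-2.08 ± 0.47, edgeR adjusted p = 0.0176), and -1.50 without A2 (edgeR adjusted p = 0.0549). Rps14, a protein of the platform next to the decoding site, had 141, 292 and 247 in A and 97.4 and 96.9 in B, the smallest fall of the 20 (-1.22 ± 0.37, edgeR adjusted p = 0.0455). It was not called without A2 or A3 (edgeR adjusted p = 0.213 and 0.156). Rps25 and Rps13 completed the set. Rps13 was not called without A2 or A3 (edgeR adjusted p = 0.161 and 0.110) or with the replicate block (edgeR adjusted p = 0.0811).

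Other small-subunit genes with high counts had no call. Rps18, at the head of the subunit, was higher in B by value, with 98.7, 98.8 and 124 scaled CPM in A and 169 and 187 in B. The groups did not overlap, but the difference of 0.74 ± 0.28 missed the threshold (edgeR adjusted p = 0.0861). Rps3, an RNA-binding protein at the mRNA entry, had 233, 187 and 169 in A and 115 and 117 in B (-0.76 ± 0.30, edgeR adjusted p = 0.0933). Rps9 spread widely within A, at 76.9, 206 and 175 against 123 and 128 in B. A1 was the lowest library of all and the B values lay between it and the other A libraries, with no call with A1 (edgeR adjusted p = 0.65) or without it (-0.49, under the fold required).

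The largest fall was in a gene of the large subunit, Rpl27, which had 23.8, 72.0 and 59.2 scaled CPM in A and 3.03 and 6.32 in B. Even its lowest A library was above both B libraries, and the log2 fold change of -3.46 ± 0.57 (edgeR adjusted p = 0.00658) is 11.0 times lower in B. It was the member that also fell with library totals alone (-1.88, edgeR adjusted p = 0.0178). Rpl6 had 88.8, 86.0 and 69.6 in A and 14.5 and 20.2 in B (-2.24 ± 0.32, edgeR adjusted p = 0.00371), with A values that agreed closely. Rpl41, which encodes a very short, highly basic peptide, had 264, 189 and 210 in A and 38.8 and 63.2 in B (-2.12 ± 0.36, edgeR adjusted p = 0.00721). Per kilobase it was second in A, at 131 CPM of library total, and at 80.9 in B. Rpl10, Rpl36, Rpl35a, Rpl18, Rpl37a, Rpl3 and Rpl28 were among the others that fell, of which Rpl36, Rpl35a and Rpl18 were not called without A2 or without A3.

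Rpl8, by contrast, had no call, although it lay lower in both B libraries, at 456, 863 and 861 scaled CPM in A and 401 and 400 in B (-0.86 ± 0.40, edgeR adjusted p = 0.144). A1 was far below A2 and A3 and close to B. Rpl4, a globular protein with an extension into the peptide tunnel, overlapped between groups at 210, 140 and 101 in A and 130 and 121 in B (edgeR adjusted p = 0.594). Rpl7a had 96.2, 82.8 and 41.5 in A and 169 and 127 in B. Both B values were the highest, but the difference of 0.98 ± 0.37 was not called (edgeR adjusted p = 0.0852). Without A1 it was called, at 1.26 (edgeR adjusted p = 0.00244).

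The stalk binds the translation factors that act as GTPases on the ribosome. Its base Rplp0 had 217, 386 and 225 scaled CPM in A and 68.1 and 84.7 in B and fell by 1.86 ± 0.38 (edgeR adjusted p = 0.0125), a call lost without A2 (-1.46, edgeR adjusted p = 0.0552). Rplp2, an acidic protein that pairs with Rplp1 on that base, had 48.1, 61.1 and 41.5 in A and 14.3 and 15.6 in B and fell by 1.76 ± 0.31 (edgeR adjusted p = 0.00833). Its partner Rplp1 had 39.7, 68.5 and 51.8 in A and 51.5 and 49.4 in B, within the range of A, with a log2 fold change of -0.08 ± 0.31 (edgeR adjusted p = 0.859). The difference between the partners was not itself tested. In the pair that joins 5S ribosomal RNA in a particle able to bind MDM2, 1 gene was called lower, against 12.4% of all genes. Rpl11 had 46.1, 59.1 and 47.4 in A and 14.5 and 11.6 in B and fell by 1.97 ± 0.31 (edgeR adjusted p = 0.00556). Rpl5 had 104, 115 and 120 in A and 78.4 and 112 in B (-0.25 ± 0.29, edgeR adjusted p = 0.553), with groups that overlap.

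Proteins around the exit of the peptide tunnel, where nascent chains meet the signal recognition particle and the translocon of the endoplasmic reticulum, had 3 of the 4 highest log2 fold changes among members. Rpl39 had 12.4, 2.33 and 5.92 scaled CPM in A and 20.3 and 25.1 in B (1.72 ± 0.56, edgeR adjusted p = 0.0546). Rpl31 had 23.3, 7.0 and 7.41 in A and 33.2 and 40.2 in B (1.48 ± 0.49, edgeR adjusted p = 0.0596). Rpl17 had 40.7, 27.6 and 10.4 in A and 59.1 and 78.5 in B (1.32 ± 0.44, edgeR adjusted p = 0.061). In these 3 genes both B libraries were above all A libraries and A1 was the highest A library, and none passed the threshold in the edgeR fit of all 5 libraries with its filter on low counts. All 3 did when only protein-coding genes were fitted and when no filter was used, and DESeq2 called Rpl17 and Rpl31. Without A1, where 20.8% of all genes were called higher, all 3 were called higher, by 2.93, 2.48 and 1.74 (edgeR adjusted p = 0.000195, 4.75e-05 and 0.000753). The other tested exit proteins had values below 0 with all libraries. Rpl19 had 11.9, 10.9 and 4.44 in A and 5.25 and 5.66 in B (-0.84 ± 0.46, edgeR adjusted p = 0.201). Rpl26 had 30.7, 4.67 and 1.48 in A, where A3 held a single count, and 10.7 and 10.6 in B (-0.35 ± 0.78, edgeR adjusted p = 0.761). Its A1 value was the highest of all 5, and without A1 it too was called higher, by 1.59 (edgeR adjusted p = 0.0207). Rpl23a and Rpl35 did not pass the filter on low counts used with edgeR and are given below. Of the 7 genes 5 were tested, with a median of 1.32, and 1.74 without A1.

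**Figure D3:**
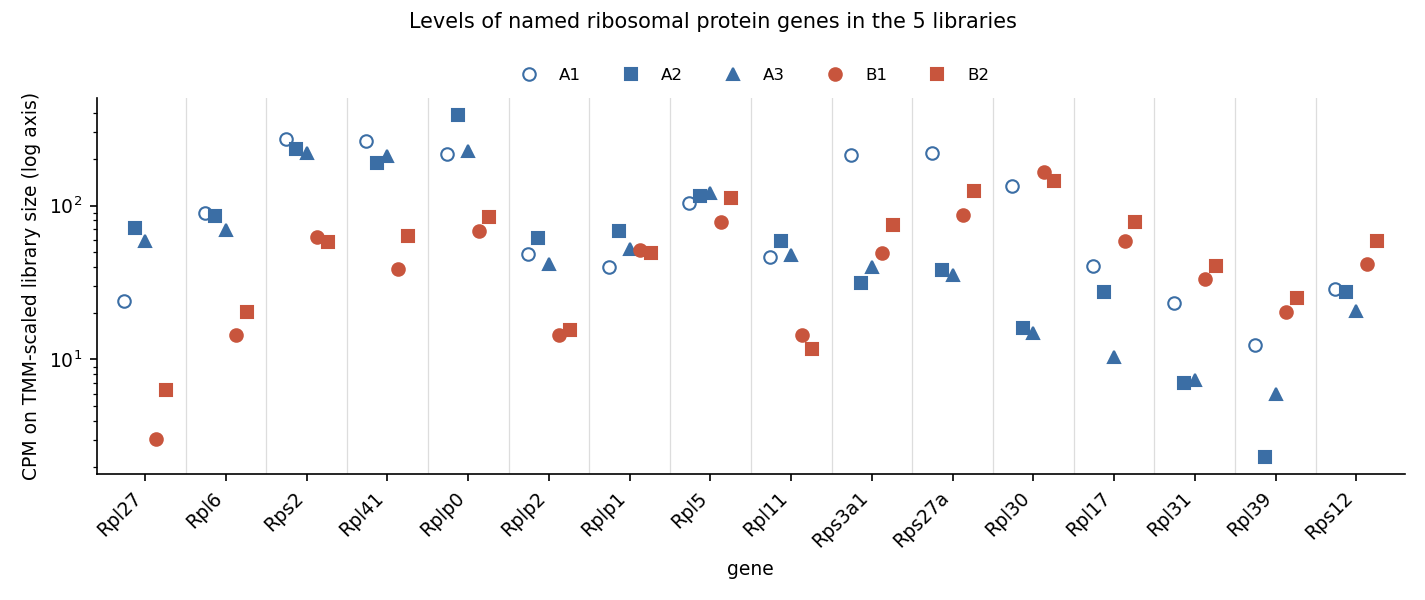
Scaled CPM (log axis) of 16 members in the 5 libraries, 1 symbol a library, blue for A (A1 open) and red for B. Values are not divided by length, so genes are not compared with each other. Rpl27 to Rplp2 and Rpl11 lie lower in both B libraries with TMM scaling (of these, Rpl27 alone is called with library totals). Rpl17, Rpl31, Rpl39 and Rps12 lie higher in both, without a call in the edgeR fit described in the text. DESeq2 called Rpl17, Rpl31 and Rps12, and some edgeR fits with other filters or corrections called each of these genes. In Rps3a1 and Rps27a A1 exceeds all other libraries.

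Library A1 differed from A2 and A3 by its ribosomal protein mRNAs as well. Over the 74 members tested, A2 and A3 had a Spearman correlation of 0.95 in log2 scaled CPM and B1 and B2 of 0.98, but A1 reached 0.69 with A2, 0.70 with A3, 0.74 with B1 and 0.77 with B2. These are descriptions over genes, which share libraries and depth. The other 9448 protein-coding genes gave 0.83 and 0.80 for A1 with A2 and A3 and 0.85 and 0.84 for A1 with B1 and B2. The median member differed 1.24-fold between A2 and A3 and 1.26-fold between B1 and B2, but 1.49-fold between A1 and A2 and 1.72-fold between A1 and A3. In 14 of the 74 members A1 was more than 2 times above both other A libraries, and in 6 it was under 1/2 of both. The same counts over all genes are not given here, so these 2 counts describe the members only.

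Rpl30 shows the split most clearly. Its scaled CPM was 135, 15.9 and 14.8 in A and 165 and 145 in B. A1 was near the B libraries while A2 and A3 were far lower, and the difference was 1.44 ± 0.80 with all libraries (edgeR adjusted p = 0.211) and 3.42 without A1 (edgeR adjusted p = 3.72e-07). Rps3a1 had 212, 31.5 and 40.0 in A and 49.3 and 75.1 in B, and Rps27a, which encodes ubiquitin fused to a ribosomal protein, had 221, 38.1 and 35.5 and 86.1 and 125. Both were highest in A1. Rps3a1 turned from -0.62 ± 0.74 to 0.97 without A1, short of the fold required. Rps27a was called higher without A1 (1.62, edgeR adjusted p = 0.000164) and had a log2 fold change of 0.08 ± 0.72 with it.

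The 13 members called higher without A1 were Rpl7, Rpl7a, Rpl14, Rpl17, Rpl22, Rpl26, Rpl30, Rpl31, Rpl39, Rps12, Rps15a, Rps24 and Rps27a. In 9 of them A1 was more than 2 times above both other A libraries, and in 7 both B libraries were above all 3 A libraries including A1. These 13 and the groupings of A1 were named after their values were seen. Which of the A libraries is closer to the membrane RNA as a whole cannot be told from these counts.

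**Figure D4:**
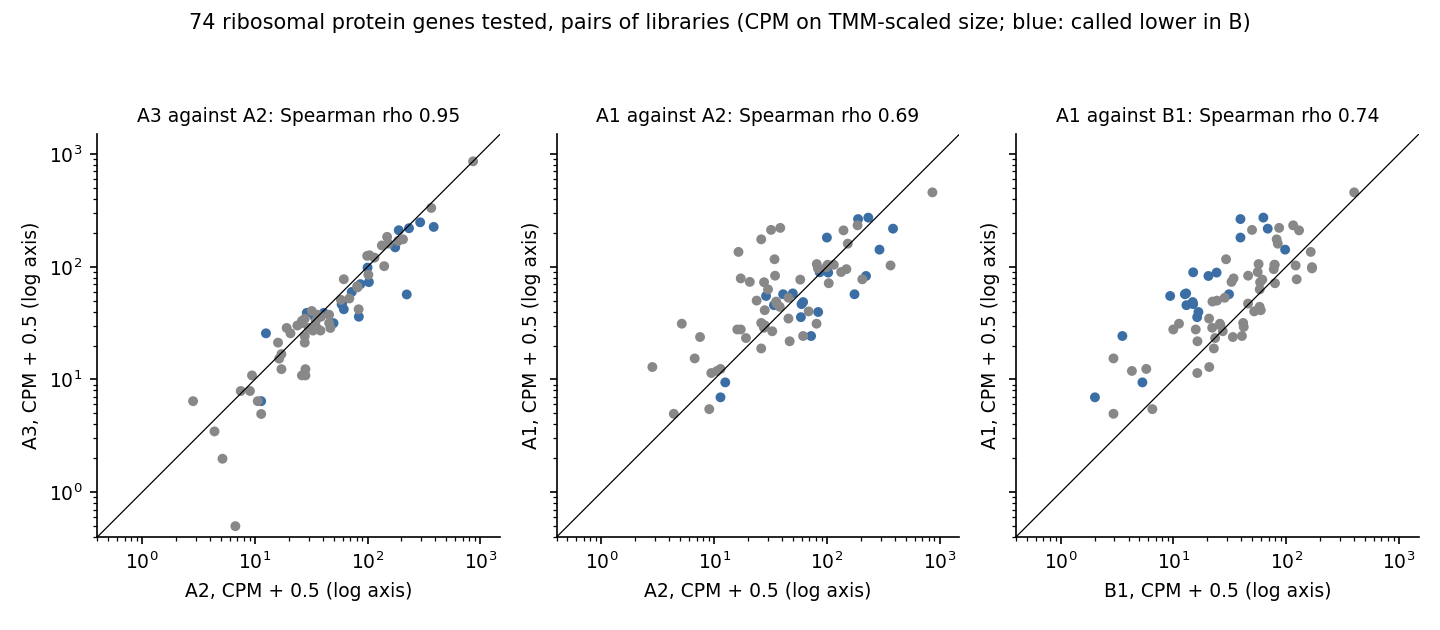
Scaled CPM plus 0.5 on log axes for the 74 members tested, A3 against A2, A1 against A2 and A1 against B1, with the line of equal values. Blue marks the members that fell in B under TMM scaling, of which 1 fell with library totals. Points lie tightly along the line for A2 and A3 (Spearman rho 0.95) and scatter more for A1 against A2 (0.69) and against B1 (0.74).

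A few members were almost without counts in every library. Rps27rt, the retrocopy with the start sequence shown above, had 0 counts in all 5, and the floor of 3 counts allowed 0.131 to 2.53 CPM of library total. Rpl24 had 10 counts in B1 and 0 in the other 4 libraries. Rpl23a had 4, 2 and 0 counts in A and 4 and 0 in B, and Rpl35 had 1, 4 and 3 in A and 3 and 0 in B. Rpl36al, which encodes a near copy of Rpl36a, had 0, 3 and 3 counts in A and 21 and 32 in B. These 5 were the members that did not pass the filter used with edgeR. DESeq2, run without that filter, counted Rpl35 among its 21 lower members, on the few counts just given. Apart from them Rps10 had 9, 10 and 2 counts in A and 100 and 8 in B, and Rpl29 had 30, 16 and 0 and 100 and 153, so that each had a library under 3 counts. Rps10 differed more than 10-fold between the replicate libraries B1 and B2, with no call (edgeR adjusted p = 0.275).

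Rpl23a, Rpl24 and Rpl35 encode single proteins that every ribosome carries, and each shares sequence with pseudogenes. Their transcripts shared 85.7%, 81.7% and 95.1% of 50-base stretches with other genes, among them 28, 8 and 7 pseudogenes. In Rpl35, 59.0% of the stretches occur in Wdr38, a protein-coding gene that overlaps it on the opposite strand. In Rpl24, 69.4% occur in Gm28037, annotated as a processed transcript and not a pseudogene, against 59.4% in the pseudogene Gm9385. Rps27, with 98.6% shared, had 37, 66 and 22 counts in A and 915 and 1028 in B. Over the 79 members the share of such stretches and the CPM per kilobase had Spearman correlations of -0.21 to -0.28 in the 5 libraries, which is a weak relation between genes. The log2 fold change was nearly unrelated to it (Spearman -0.12 over 74 members). Its part in the lowest counts was not tested. Of the 40 members with under 60% shared, a split made after the data were seen, all were tested and 10 fell, and of the 34 tested with more, 10 fell, against 12.4% of all genes. Without A1 6 and 7 rose, from 0 in each, against 20.8% of all genes.

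**Figure D5:**
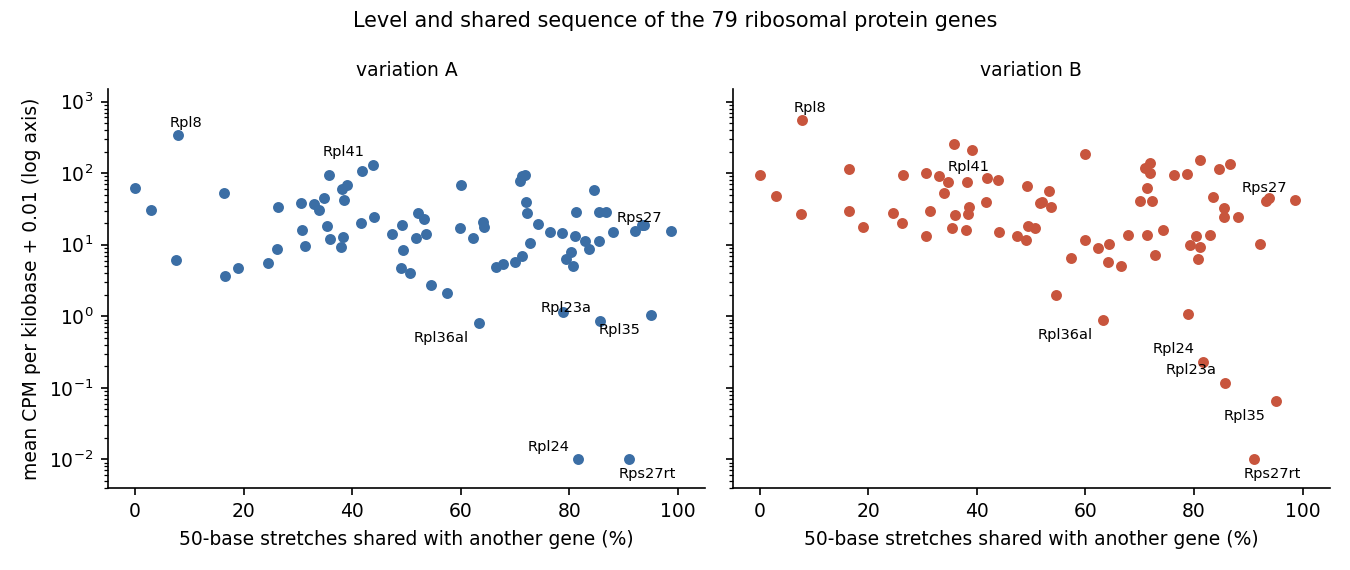
Mean CPM of library total per kilobase plus 0.01 (log axis) against the percentage of 50-base stretches of the reference transcript that occur in another gene, for the 79 members, in A (mean of 3 libraries) and B (mean of 2). Named points at the bottom right, Rps27rt, Rpl24, Rpl23a and Rpl35, share over 80% of their stretches, as does Rps27, which is well counted.

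Counts on genes of the family with -ps symbols were few but differed between the variations. Pseudogenes under other symbols, such as Gm names, are not among them. The 300 genes with -ps symbols held 60, 64 and 19 counts in A and 1996 and 2222 in B. Of the counts on members and these genes together this is 0.501%, 0.40% and 0.514% in A and 1.31% and 1.25% in B. Both B libraries lay above all A libraries, 2.72 times on average (exact permutation p = 0.1, adjusted p = 0.1 over the 3 shares). When the counts of 297 pseudogenes were added to their parents, the same 20 members fell and Rpl31 rose.

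The 79 genes lie on 19 chromosomes. The 30 members that hold an annotated snoRNA gene had 8 falls among 29 tested, and the 49 without had 12 among 45, with medians of -0.51 and -0.52, against 12.4% of all genes lower. Without A1 5 and 8 rose, from 0 in each, against 20.8% of all genes, and the medians were -0.27 and -0.31. The lowest and highest of the hosts were Rpsa and Rpl39. On the X chromosome, Rpl10, which completes the tRNA path of the large subunit, had 57.5, 49.4 and 31.1 scaled CPM in A and 12.5 and 9.80 in B and fell by 2.07 ± 0.36 (edgeR adjusted p = 0.00778). Rpl36a had 26.3, 32.3 and 26.7 and 26.9 and 31.9, with a log2 fold change of 0.04 ± 0.29. Rps4x had 116, 33.8 and 28.1 and 28.8 and 42.9 (-0.76 ± 0.58, and 0.29 without A1), with A1 again apart, and Rpl39 is described above. The spans of 22 members overlap a gene annotated on the other strand. Counting used no strand and no overlap option, so reads over exons of both genes are not counted. Over exons of the member alone, the strand of a read cannot be told. The 22 members include Rps2, Rps14, Rps18, Rps25, Rpl18, Rpl3, Rpl28, Rpl30, Rpl31 and Rpl35a.

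Some ribosomal proteins are left out by the naming rule. Fau, the source of the small-subunit protein eS30, had 26, 84 and 22 counts in A and 292 and 423 in B and fell by 1.58 ± 0.46 with TMM scaling (edgeR adjusted p = 0.0397), but was not called without A2 or A3 (edgeR adjusted p = 0.172 and 0.134). Rack1, a signalling scaffold on the small subunit, had 974, 1877 and 503 and 13205 and 13415 (-1.03 ± 0.36, edgeR adjusted p = 0.0675), and was called lower without A1 (-1.08, edgeR adjusted p = 0.000203). Of 7 paralogs 3 were tested and 0 were called: Rpl7l1 (0.73 ± 0.31, edgeR adjusted p = 0.117), Rps27l (-0.08 ± 0.35, 0.878) and Rpl22l1 (-1.33 ± 0.90, 0.295). Without A1 Rpl7l1 was called higher (1.02, edgeR adjusted p = 0.00887), and Rpl22l1 turned to 0.36 (edgeR adjusted p = 0.822). Rpl39l and Rps4l had 0 counts throughout, Rpl10l had 1 count in B2, and Rpl3l, a muscle form, had 1 and 26 in B1 and B2 and 0 in A.

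Other mRNAs known to start with a TOP tract were compared as well. Of 17 genes for elongation and initiation factors and related proteins, all tested, 1 fell and 0 rose, against 12.4% and 11.0% of all genes, with a median of -0.18. Without A1 2 fell and 5 rose, against 15% and 20.8%, and the median turned to 0.44. The fall was of Eef1g, a subunit of the elongation factor 1 complex (-1.49 ± 0.44, edgeR adjusted p = 0.0403, and 0.167 without A2), and the highest value was that of Pabpc1, the poly(A)-binding protein (1.35 ± 0.46, edgeR adjusted p = 0.0629), which was called higher without A1 (1.92, edgeR adjusted p = 5.01e-06). Among 24 nuclear and cytoplasmic ribosome assembly factors 6 fell and 1 rose, against 12.4% and 11.0% of all genes, with a median of -0.23. Without A1 6 fell and 4 rose, against 15% and 20.8%, with a median of 0.14. Bysl, an assembly factor of the small subunit, fell most (-1.69 ± 0.34, edgeR adjusted p = 0.0121, and 0.051 without A2). Ltv1, a chaperone that leaves the small subunit late, rose from 17.9, 6.61 and 7.41 scaled CPM in A to 94.0 and 70.6 in B (2.90 ± 0.44, edgeR adjusted p = 0.00463). Of the 78 nuclear genes for mitochondrial ribosomal proteins, whose mRNAs are partly translated at the mitochondrial surface, 74 were tested. In B 5 fell and 3 rose, against 12.4% and 11.0% of all genes, with a median of -0.29. Without A1 12 fell and 9 rose, against 15% and 20.8%, with a median of -0.10. They ranged from Mrpl36 (-2.91 ± 0.58, edgeR adjusted p = 0.0116) to Mrpl9 (1.89 ± 0.34, edgeR adjusted p = 0.00839). The cytosolic members had 20 of 74 lower, against 12.4% of all genes, and 22 of 75 without A1, against 15%. With library totals in place of TMM scaling the TOP list had 0 lower and 5 higher (median 1.16), the assembly factors 0 and 11 (median 1.22) and the mitochondrial list 1 and 32 (median 1.24), against 2.93% and 55.1% of all genes and their median of 1.50. The difference between these lists was not tested.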

How the data were processed

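RNA from EL4 membrane-coated nanoparticles was sequenced in 5 libraries (3 of variation A, 2 of variation B; 1187117 to 22980172 counts each). Per the labels and file headers, the authors trimmed reads with Trimmomatic 0.36, aligned them to GRCm38/mm10 with STAR 2.7.3a and deposited read counts per gene from featureCounts 1.6.4 (exons, GENCODE M24, no strand, multi-mapping or overlap option). Symbols, types, transcripts and snoRNA genes came from GENCODE M21, which matched 55144 of 55385 gene IDs. The members and lists were chosen with earlier results of these data known.

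Counts were tested by the quasi-likelihood F test of edgeR 4.0.16 after filterByExpr and TMM, with Benjamini-Hochberg adjustment over 10287 genes, and shares by exact permutation over 10 divisions of the libraries. The scripts were tested on simulated counts. DESeq2 1.42.0, other scalings and filters and each library left out were alternatives. Named were the 10 members highest in mean CPM, the 5 largest and 5 smallest fold changes, stalk, 5S and tunnel exit proteins, members not tested or under 3 counts in a library, every gene of lists of up to 8 and the extremes of longer lists. A few genes that this rule names are not reported here.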

Additional observations from a re-analysis of the deposited data

How the results depend on the processing

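The count of ribosomal protein genes that rose in B was 0 with TMM scaling and moved to 25 with library totals, 3 with DESeq2, 3 with no filter on low counts, 3 with protein-coding genes only, 2 with the replicate block, and 1 each with at least 10 counts in every library, with the length trend removed and with pseudogene counts added. The count that fell was 20 and moved to 1 with library totals and to 6 when tested against a fold of 2, and was 16 to 21 under the other scalings, filters, tools and corrections. Over all genes, 11.0% were called higher and 12.4% lower with TMM scaling, 55.1% and 2.93% with library totals, and 7.95% and 12% with DESeq2. Without A1 these shares were 20.8% and 15%. For the test against a fold of 2 and the other scalings, filters and corrections, the shares over all genes are not given here. With each library left out in turn, the rises ranged from 0 to 13 (without A1) and the falls from 0 (without B1) to 22 (without A1). Leaving out A1 changes the rises, and leaving out A2, B1 or B2 lowers the falls to 11, 0 or 2. With 1 B library the lone sample is assumed to vary like the others. The median log2 fold change of the members turned from -0.51 to 0.95 with library totals, and stayed from -0.66 to -0.28 elsewhere. The difference in their share of counts turned from 0.33 to -0.30 percentage points when protein-coding counts were the denominator. The alternatives' own construction (the scaling or denominator) sets these turns, and the cause of the others was not tested.

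Replicate numbers are not stated to mark a shared batch. Over all genes, A1 and B1 were each set against the average of their own variation, and these differences correlated at -0.11. For A2 and B2 the correlation was -0.05. With 2 libraries in B, the differences of B1 and B2 are equal and opposite. These correlations therefore cannot decide whether a number marks a shared batch, which was not tested in another way. With the replicate block 17 members fell and 2 rose (Rpl30 and Rpl39). The share of all genes called in that fit is not given here, so these counts are not set against it.

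Depth limits the A libraries most: 3 counts are 2.53 CPM in A3 and 0.131 in B2. The comparisons of shares cannot go below p = 0.1 (exact permutation) with 3 against 2 libraries.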
